A study of Homo sapiens with 24 samples.

Results

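The keratin family was described in 4 human cancer cell lines treated with Ocoxin. Its members were the protein-coding genes whose symbol is KRT followed by a number and, in some, a letter from A to C, and 55 of the 58051 genes of the count tables met this rule. The rule reads gene symbols and biotypes and no measured value, although the family was picked with earlier results of these data known. Of the 55 genes, 29 encode type I and 26 encode type II keratins. On hg38, 28 lie between positions 40654665 and 41624842 of chromosome 17, and 27 lie between positions 52168996 and 52952901 of chromosome 12, among them KRT18, the 1 type I gene there. RNA was sequenced from 24 libraries, 3 control and 3 Ocoxin libraries for each of SW620 (colorectal adenocarcinoma, COAD), BxPC-3 (pancreatic adenocarcinoma, PAAD), LNCaP (prostate adenocarcinoma, PRAD) and HCC-70 (triple negative breast cancer, TNBC). Ocoxin, a nutritional supplement that combines extracts from plants with vitamins, amino acids and minerals, was diluted 1:700 for COAD and TNBC, 1:500 for PAAD and 1:50 for PRAD in medium with 1% fetal bovine serum for 48 h. The study chose each dilution near the IC50 of that line, the dose that lowers viability by 50%, and added fresh Ocoxin during the treatment. The methods of the study give the 1% serum for the treated cells, and RNA came from the cells that still adhered. Each cancer is represented by 1 cell line, and no label says whether the replicates were separate cultures, so p-values measure the spread between these libraries, which may be technical.

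Keratins are the intermediate filament proteins of epithelial cells. A filament is built from heterodimers of an acidic type I and a basic type II keratin, so cells make members of both types together. KRT8 and KRT18 form the pair of simple epithelia such as gut and prostate lining, and KRT7 and KRT19 accompany them in ducts. KRT5 pairs with KRT14 or KRT15 in the basal layer of stratified epithelia. KRT6A, KRT6B, KRT16 and KRT17 are known from wounds, stress and skin appendages, KRT4 and KRT13 from the differentiated layers of mucosa, KRT10 from differentiated epidermis, and KRT31 to KRT40 together with KRT81 to KRT86 from hair and nail.

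The 300 bases around the start of 3 keratin genes are shown, because KRT4 had the largest fall under Ocoxin, KRT5 was altered in opposite directions in 2 cell lines, and KRT10 was expressed in every cell line. They were taken from RefSeq (GRCh38.p14) and run from 250 bases before to 50 bases after the start, on the minus strand, at chr12:52814067-52814366 for KRT4, chr12:52520345-52520644 for KRT5 and chr17:40822565-40822864 for KRT10. Capitals mark the motif matches described after them.
KRT4: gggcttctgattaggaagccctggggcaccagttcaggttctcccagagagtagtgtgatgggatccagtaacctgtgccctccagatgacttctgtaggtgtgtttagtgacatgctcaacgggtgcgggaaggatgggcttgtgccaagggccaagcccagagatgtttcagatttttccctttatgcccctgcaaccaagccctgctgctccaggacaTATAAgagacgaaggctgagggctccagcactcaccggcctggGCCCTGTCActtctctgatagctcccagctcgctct
KRT5: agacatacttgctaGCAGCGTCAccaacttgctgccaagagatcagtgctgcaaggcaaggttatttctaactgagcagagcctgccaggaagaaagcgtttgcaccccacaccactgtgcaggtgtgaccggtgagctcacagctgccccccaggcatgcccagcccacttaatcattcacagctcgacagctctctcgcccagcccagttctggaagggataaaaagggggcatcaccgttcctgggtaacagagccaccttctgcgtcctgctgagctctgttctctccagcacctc
KRT10: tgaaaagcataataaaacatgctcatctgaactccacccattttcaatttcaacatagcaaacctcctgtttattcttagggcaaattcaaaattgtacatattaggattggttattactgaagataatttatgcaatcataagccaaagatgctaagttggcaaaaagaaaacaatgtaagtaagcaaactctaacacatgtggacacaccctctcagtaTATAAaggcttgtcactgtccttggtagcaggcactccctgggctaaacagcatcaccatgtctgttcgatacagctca

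The promoter table held 34 of the 55 keratins. For 32 of these, the start used lay within 100 bases of that of the MANE Select transcript. The starts of KRT8 and KRT40 lay 21393 and 2675 bases away. Both strands were searched for a TATA box (TATAA), AP-1 (TGANTCA), the core of the antioxidant response element (TGACNNNGC) and the core of the xenobiotic response element (GCGTG). The letters of the TATA box were found, at any position, in 25 of the 34 keratin promoters (73.5%) and in 20.4% of 35116 promoters of the same length. These letters replaced TATAAA after the matches of KRT4 had been seen, and TATAAA was found in 20 of the 34 (58.8%) and in 11.5% of all promoters. TATAA began 29 bases before the start in both KRT4 and KRT10, but 53 bases before it in KRT73 and 190 in KRT82. The antioxidant response element core was found in 9 keratin promoters (26.5%, against 13.3% of all), KRT4 and KRT5 among them, the xenobiotic response element core in 4 (11.8%, against 36.5%), and AP-1 in 0 of 34 (against 7.71%). The 34 include many hair keratins that were not expressed here, and a match of letters is no binding site. They lack KRT6A, KRT6B, KRT7, KRT13 to KRT19, KRT23 and KRT80. Of the keratins altered by Ocoxin in some line, they hold only KRT4, KRT5, KRT8 and KRT40. The shares therefore do not describe most of the keratins altered here.

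The libraries of COAD, PAAD and TNBC held 25160757 to 39009959 counts each, and those of PRAD, which was counted in a separate run, held 9063968 to 9520969. The Ocoxin libraries of COAD (25160757 to 29670036) were smaller than its controls (31265452 to 34397801). Levels are given as CPM (counts scaled to library size with TMM normalization) per kilobase of the MANE Select transcript (CPM per kb). The prostate marker KLK3 (275 ± 3.89, SD, n = 3) was present in LNCaP controls, and the gut marker VIL1 (73.7 ± 0.93) in SW620 controls, where CDX1 (0.00539) was near 0. KLK3 was read in SW620 too, with 0.219 to 0.277 counts per base of the MANE Select transcript over its control and Ocoxin libraries. The sum of 5 prostate luminal markers was 564 to 579 in LNCaP controls and 32.9 to 33.8 in SW620 controls. TP63, which encodes the master regulator of basal cells, was at 85.6 ± 2.47 in BxPC-3 and at 0.325 ± 0.04 in HCC-70 controls, so this basal marker was low in HCC-70, which had the basal keratins.

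In untreated cells, each line had its own leading keratins, and the named members are those with a mean of at least 1 CPM per kb of exon in some group or altered by Ocoxin in some line (23 of 55). SW620 had a simple epithelial profile. KRT8 led with 1675, 1624 and 1771 CPM per kb in the 3 control libraries, followed by KRT18 (1078 ± 57.4) and KRT19 (558 ± 33.8), and the ranges of these 3 did not overlap. KRT8 made up 49.1% of the summed keratin level and KRT18 31.3%. After a gap came KRT80 (36.4 ± 2.43), a keratin with broad epithelial expression, and KRT40 (21.5 ± 1.72), a hair keratin. KRT10, KRT15, KRT7, KRT23 and KRT5 lay between 9.82 and 7.86, and the ranges of neighbours in this order overlapped. KRT39, KRT81, KRT83 and KRT86, further hair keratins, lay between 1.70 and 5.07.

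BxPC-3 had a basal profile on top of a ductal profile. KRT17 was at 1731, 1744 and 1498 CPM per kb and KRT5 at 1598, 1521 and 1386, with overlapping ranges. KRT19 (997 ± 107), KRT7 (694 ± 50.2), KRT6A (534 ± 22.2), KRT8 (506 ± 40.7) and KRT18 (384 ± 20.1) followed, and of these neighbours only KRT6A and KRT8 overlapped. The mucosal keratins KRT13 (285 ± 33.1) and KRT4 (108 ± 8.56) were expressed too. KRT14, the usual type I partner of KRT5, was at 15.6 ± 1.16 and KRT15 at 28.3 ± 3.21, far under KRT5.

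HCC-70 combined KRT19 (1124 ± 43.9), KRT5 (730 ± 51.9) and KRT16 (586 ± 50.5) with KRT8 (452 ± 18.3), KRT4 (440 ± 60.6) and KRT7 (422 ± 12.7), and the ranges of these last 3 overlapped between neighbours. KRT17 (176 ± 20.2), KRT6B (160 ± 20.1), KRT18 (156 ± 4.33), KRT15 (110 ± 3.48) and KRT14 (63.2 ± 2.36) came next, with overlap between KRT17 and KRT6B and between KRT6B and KRT18. KRT6A, at 8.20 ± 0.97, was far under KRT6B, while BxPC-3 had KRT6A at 534 and KRT6B at 3.44 ± 0.02. KRT9, known from the skin of palms and soles, reached 2.13 ± 0.08 in HCC-70.

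LNCaP had KRT8 (83.5 ± 2.55), KRT18 (57.6 ± 0.83), KRT10 (11.7 ± 0.49), KRT19 (7.83 ± 0.63) and KRT14 (4.65 ± 0.64), with ranges that did not overlap, and KRT5 had 0 counts in its 3 controls. Its levels were not tested against those of the other lines. In PRAD, no gene exceeded 0.995 counts per base of exon, against 39.1 to 49.0 in the other lines. On this scale, KRT8 reached 0.2103 and KRT18 0.2455 in PRAD. Per base of the MANE Select transcript, KRT8 reached 0.811 and KRT18 0.559, close to ACTB (0.956) and GAPDH (0.776), while KLK3 reached 2.579. The part of such a limit in the PRAD levels of KRT8 and KRT18 was not tested.

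**Figure D1:**
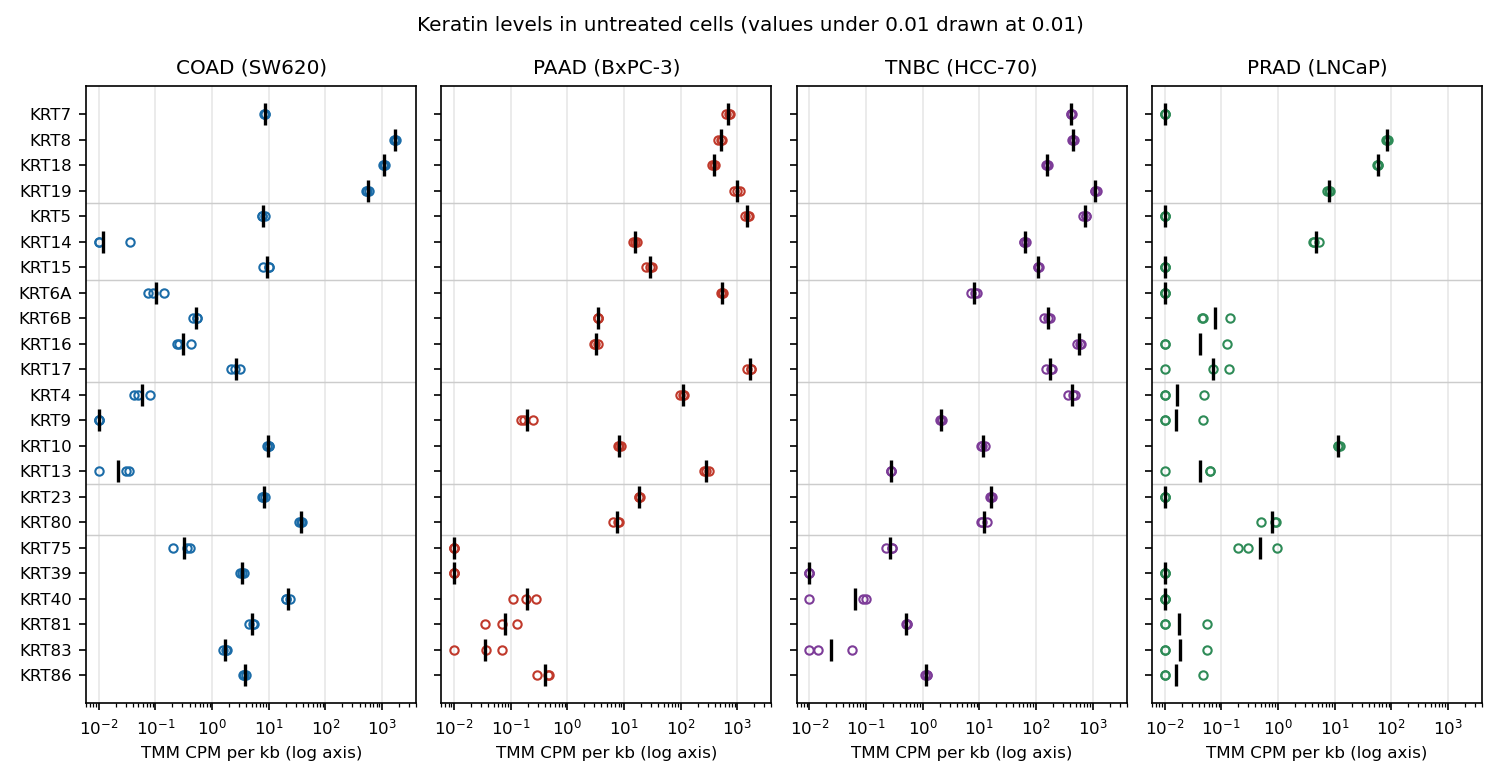
Levels of the 23 named keratins in the 3 control libraries of each cell line, in TMM CPM per kb of MANE Select transcript on a log axis, with open circles for libraries and black bars for means. KRT8 leads in SW620 and LNCaP, KRT17 in BxPC-3 and KRT19 in HCC-70, and KRT10 lies between 8.26 and 11.5 in SW620, BxPC-3 and HCC-70 and at 11.7 in LNCaP, whose levels come from a separate count table.

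KRT10 was at 9.82 ± 0.42 in COAD, 8.26 ± 0.49 in PAAD, 11.5 ± 1.10 in TNBC and 11.7 ± 0.49 in PRAD. Its differences were small and were called between the 3 lines tested, with 0.84 times the COAD level in PAAD (adjusted p = 0.0143) and 1.17 times in TNBC (adjusted p = 0.0232), and 1.39 times the PAAD level in TNBC (adjusted p = 5.15e-05). The other 32 keratins stayed at or under 70 counts in any library, and 8 of them had 0 counts in all 24 libraries. Among the 32 were KRT20, a marker of gut epithelium, with 0 to 4 counts in the SW620 libraries, and KRT1 and KRT2, the type II keratins of differentiated epidermis.

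Summed over the 55 genes, the type I and type II levels were nearly equal in each cell line. In controls, the sum of type I divided by that of type II was 0.963 ± 0.01 in COAD, 1.01 ± 0.02 in PAAD, 1.01 ± 0.02 in TNBC and 0.964 ± 0.02 in PRAD. This held although different genes made up the sums, for example KRT18 and KRT19 against KRT8 in SW620, and KRT17 and KRT19 against KRT5, KRT7, KRT6A and KRT8 in BxPC-3. With Ocoxin the ratios were 0.923 ± 0.01, 0.953 ± 0.04, 0.983 ± 0.02 and 0.909 ± 0.03 in the same order. The ratio depends on the gene length used. Per kilobase of all annotated exons, it was 1.73 ± 0.02, 1.16 ± 0.03, 1.18 ± 0.03 and 1.93 ± 0.01 in controls, because KRT8 has 6881 bases of annotated exon and a MANE Select transcript of 1784 bases. The MANE Select length was chosen after these lengths had been seen. In PRAD controls, KRT8 made up 49.5% and KRT18 34.1% of the keratin sum. The counts per base of both genes were described above. The part of a limit on counts per base in the PRAD ratio was not tested.

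**Figure D2:**
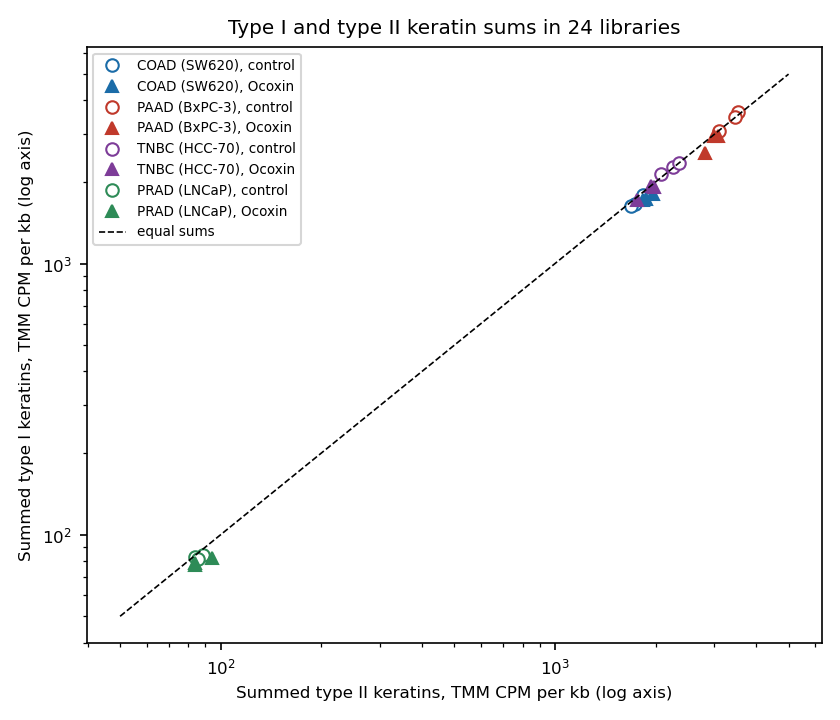
Summed level of the type I keratins against that of the type II keratins in each of the 24 libraries, both in TMM CPM per kb on log axes, with open circles for control, triangles for Ocoxin and a dashed line for equal sums. Within each cell line the points lie near the line, and PRAD, counted separately, has type I sums of 77.5 to 83.9.

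Between untreated cell lines most genes differed, so a difference distinguishes a keratin little. The filter was run over the controls of COAD, PAAD and TNBC together, so a keratin could pass through a single line. KRT39, with 188 to 226 counts in COAD controls and 0 in PAAD and TNBC controls, passed in this way. Its difference from COAD, counted below, was then built in. Of the 26 keratins tested, 24 differed between COAD and PAAD (against 78.6% of all genes tested), 14 of them higher in PAAD (38.4% of all genes) and 10 lower (40.2%). In TNBC against COAD, 24 differed (82.8%), 16 higher (40.5%) and 8 lower (42.4%). In TNBC against PAAD, 22 differed (77.1%), 13 higher (37.4%) and 9 lower (39.7%). The sizes were large for some. In PAAD, KRT17 was 634-fold and KRT5 191-fold higher than in COAD, while KRT8 was at 0.299 times its level. In TNBC, KRT16 was 186-fold and KRT6B 46.4-fold higher than in PAAD, while KRT6A was at 0.0153 and KRT17 at 0.106 times the PAAD level. KRT8 (0.892 times the PAAD level, adjusted p = 0.0124) and KRT19 (1.12 times, adjusted p = 0.0251) had the smallest changes among the 22. KRT6A and KRT6B share sequence. Windows of 50 bases found in other genes made up 39.2% of the KRT6A and 46.6% of the KRT6B transcript, so their counts can be split wrongly, and for KRT8 and KRT18 such windows made up 39.2% and 35.3%, with KRT8P3 and KRT18P11, annotated pseudogenes, sharing the most. The same limit holds for KRT81 (44.6%), KRT86 (39.9%), KRT14 (24.2%), KRT16 (21.8%) and KRT17 (17.4%).

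In PAAD, Ocoxin lowered keratins of the basal, stress and mucosal groups and left KRT7, KRT8 and KRT18 near their control levels. Of the 55 keratins, 19 passed the filter on low counts and 9 were altered, against 8.33% of all genes tested, with 8 lower (against 3.62% of all genes) and 1 higher (against 4.72%). With the replicate number as a block, 11 were altered (against 23.1% of all genes). Fewer cells of a type and less RNA per cell cannot be told apart in such libraries. The median log2 fold change was -0.17 over the 19 keratins and 0.00 over all genes.

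KRT4, the type II keratin of mucosal differentiation, fell the most. It was at 116, 109 and 99.1 CPM per kb in the control libraries and at 36.6, 39.1 and 29.6 in the Ocoxin libraries, without overlap. Its level was 0.326 times that of the control (log2 fold change -1.62, SE 0.09, adjusted p = 2.77e-08). KRT13, its type I partner, was at 320, 282 and 254 in controls and at 189, 196 and 177 with Ocoxin, again without overlap (log2 fold change -0.60, SE 0.07, adjusted p = 6.86e-05). No window of 50 bases of KRT4 occurred in another gene, while 16.3% of the exon bases of KRT13 overlap another annotated gene.

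Of the 3 basal keratins, 2 fell. KRT14 went from 16.7, 15.8 and 14.4 to 10.9, 11.3 and 9.30 (log2 fold change -0.57, SE 0.09, adjusted p = 0.00136). KRT5 went from 1598, 1521 and 1386 to 1285, 1293 and 1158, and the groups did not overlap (-0.26, SE 0.06, adjusted p = 0.0119). KRT15 overlapped between groups (28.3 ± 3.21 and 29.0 ± 3.56). The call of KRT5 was lost without control replicate 2 (adjusted p = 0.0535).

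Of the stress keratins, KRT16, KRT6B and KRT17 fell. KRT17, the leading keratin of these cells, went from 1731, 1744 and 1498 to 1392, 1426 and 1179 CPM per kb (log2 fold change -0.31, SE 0.07, adjusted p = 0.0138). The groups did not overlap, and the call was lost without control replicate 1 (0.054) or 2 (0.0731). KRT16 was low, with 174, 148 and 153 counts in controls and 102, 95 and 94 with Ocoxin (-0.72, SE 0.15, adjusted p = 0.00713), and counts on its 6 annotated pseudogenes were 107% to 174% of its own. KRT6B had a log2 fold change of -0.46 (SE 0.13, adjusted p = 0.0406), and this call was lost without any single library except Ocoxin replicate 3 (adjusted p 0.0504 to 0.181 in those fits). With KRT6A, KRT6B and KRT6C taken as 1 gene it was -0.17 (adjusted p = 0.0591). KRT6A, the more abundant paralog, went from 539, 553 and 510 to 457, 487 and 480 without overlap and was not called (-0.17, SE 0.05, adjusted p = 0.0618). With the replicate number as a block, KRT6A (adjusted p = 0.000199) and KRT19 (log2 fold change -0.24, adjusted p = 4.56e-07, against 0.0536 without the block) were called as well, for 11 in all (against 23.1% of all genes).

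KRT23, a type I keratin of several epithelia, fell (19.2, 18.4 and 18.2 to 13.7, 14.47 and 13.4, log2 fold change -0.42, adjusted p = 0.00151). KRT80 was the 1 keratin that rose in PAAD, from 8.18, 7.86 and 6.49 to 9.36, 10.0 and 10.6 (0.42, SE 0.09, adjusted p = 0.00815). The simple pair did not pass the test, with 506 ± 40.7 and 503 ± 20.4 for KRT8 and 384 ± 20.1 and 401 ± 14.3 for KRT18. The summed keratin level was 6755 ± 514 in controls and 5788 ± 358 with Ocoxin. Genes known as markers of other cell types were also read in these cultures of 1 cell line. The sum of 3 endothelial markers was 16.6 to 18.6 in controls and 26.0 to 29.4 with Ocoxin, and 1 of them reached a mean of 1. The sum of 5 fibroblast markers was 5.25 to 5.54 in controls and 3.85 to 4.52 with Ocoxin. Of these, 2 reached a mean of 1 in controls and 1 with Ocoxin. The relation of both sums to the keratin changes was not tested.

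In TNBC, Ocoxin lowered the simple epithelial keratins together with part of the stress keratins, and no keratin rose. Of 24 keratins that passed the filter, 9 were altered, against 21% of all genes tested, all of them lower (against 11.3% of all genes, with 9.65% higher). With the replicate number as a block, 13 were altered (against 33.9% of all genes), again all lower. The median log2 fold change was -0.31 over the 24 keratins and 0.01 over all genes, and 20 of the 24 values were below 0.

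All 4 simple keratins tested fell. KRT8 was at 434, 471 and 452 CPM per kb in controls and at 309, 323 and 297 with Ocoxin, without overlap (log2 fold change -0.54, SE 0.04, adjusted p = 4.76e-06). KRT18, its partner, fell less, from 152, 156 and 160 to 132, 132 and 133 (-0.24, SE 0.04, adjusted p = 0.000734). KRT19 went from 1112, 1172 and 1087 to 922, 945 and 830 (-0.32, SE 0.05, adjusted p = 0.0011), and KRT7 from 414, 437 and 416 to 364, 365 and 350 (-0.23, SE 0.03, adjusted p = 0.000727). The Ocoxin libraries lay under the control libraries for each of the 4.

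KRT80 had the largest change of the called keratins, from 10.8, 11.02 and 13.9 to 5.63, 5.39 and 6.49, or 0.491 times the control level (log2 fold change -1.03, SE 0.11, adjusted p = 0.000271). KRT23, the other member of its group tested, fell by 0.47 on the log2 scale (SE 0.06, adjusted p = 0.000279). Among the stress keratins, KRT17 went from 190, 186 and 153 to 125, 107 and 98.4 (-0.67, SE 0.12, adjusted p = 0.0148), and the call was lost without Ocoxin replicate 2 (0.0534) or control replicate 2 (0.0506). KRT6A went from 8.42, 7.14 and 9.03 to 5.27, 5.04 and 5.85 (-0.60, SE 0.10, adjusted p = 0.00107). KRT6B, the more abundant paralog here, was at 178, 164 and 138 and then at 124, 113 and 90.5 (-0.56, SE 0.16, adjusted p = 0.0695), and the counts of KRT6A, KRT6B and KRT6C taken as 1 gene gave -0.56 (adjusted p = 0.0534).

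KRT5 and KRT15 of the basal group, the mucosal KRT4 and the stress keratin KRT16 overlapped between groups in HCC-70. KRT5 was at 730 ± 51.9 and 692 ± 42.2, KRT4 at 440 ± 60.6 and 407 ± 47.8, KRT16 at 586 ± 50.5 and 538 ± 37.5 and KRT15 at 110 ± 3.48 and 106 ± 9.60. KRT14 fell, from 61.6, 62.1 and 65.9 to 54.1, 46.7 and 44.7 (-0.38, SE 0.07, adjusted p = 0.00195). With the replicate block, KRT6B (adjusted p = 5.21e-27), KRT16 (log2 fold change -0.12, adjusted p = 0.000152), KRT4 (-0.11, adjusted p = 0.000483) and KRT5 (-0.08, adjusted p = 0.0125) were called too, for 13 in all (against 33.9% of all genes). In this line, control 1 correlated best with Ocoxin 2 and control 2 with Ocoxin 1, so the pairs behind the block are uncertain. The summed keratin level was 4473 ± 244 in controls and 3751 ± 238 with Ocoxin. The sum of 4 general epithelial markers was also lower with Ocoxin (751 to 780 in controls, 648 to 667 with Ocoxin), and its relation to the keratins was not tested. Of these markers, CLDN4 (log2 fold change -0.44, adjusted p = 5.28e-06) and EPCAM (-0.25, adjusted p = 0.00328) fell. CDH1 (-0.09, adjusted p = 0.0835) and CLDN7 (-0.04, adjusted p = 0.399) were not called.

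In COAD, the leading keratins did not pass the test and some rare ones were altered. Of 19 keratins that passed the filter, 3 were altered, against 2.55% of all genes tested, 2 higher (against 1.47%) and 1 lower (against 1.09%). The median log2 fold change was 0.13 over the 19 keratins and -0.01 over all genes.

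KRT5 was at 7.49, 7.56 and 8.54 CPM per kb in controls and at 11.4, 11.4 and 10.8 with Ocoxin, without overlap (log2 fold change 0.51, SE 0.08, adjusted p = 0.000711). KRT6B rose too, from 43, 40 and 43 counts to 92, 79 and 64 counts (2.19-fold, log2 fold change 1.13, SE 0.21, adjusted p = 0.00586), at a level of 0.514 ± 0.05 in controls. The other stress keratins tested were low too and were not called. KRT17 had a log2 fold change of 0.56 (adjusted p = 0.076), KRT16 of 0.85 (0.248) and KRT6A, with 6 to 17 counts a library, of 1.11 (0.229), while KRT6A, KRT6B and KRT6C taken as 1 gene gave 1.14 (adjusted p = 0.00255). KRT40 fell, from 20.4, 20.5 and 23.5 to 17.6, 18.2 and 17.6 (-0.28, SE 0.07, adjusted p = 0.0282), and this call was lost without any 1 of the 6 libraries (adjusted p 0.056 to 0.119). KRT8 (1690 ± 74.2 and 1821 ± 69.1), KRT18 (1078 ± 57.4 and 1114 ± 21.9) and KRT19 (558 ± 33.8 and 581 ± 24.03) overlapped between groups.

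In PRAD, 10 keratins passed the filter and 0 were altered with edgeR and with DESeq2, against 2.98% of all genes tested (2.4% higher and 0.58% lower), and 2 had an unadjusted p under 0.05. The median log2 fold change was 0.02 over the 10 and 0.01 over all genes. KRT8 was at 80.9, 86.0 and 83.7 CPM per kb in controls and at 85.8, 80.5 and 80.7 with Ocoxin, and KRT18 at 57.6 ± 0.83 and 57.5 ± 2.04, with log2 fold changes of -0.02 (SE 0.04) and 0.00 (SE 0.05). With counts corrected for reads with the same start, by either gene length, 0 keratins were called too. The part of a limit on counts per base in both fold changes was not tested further. KRT14 had 63, 83 and 66 counts in controls and 37, 54 and 35 with Ocoxin, without overlap (log2 fold change -0.75, SE 0.20, adjusted p = 0.0859, and 0.0231 with the replicate block). KRT19 did not overlap either (7.82, 8.47 and 7.21 against 6.66, 5.85 and 5.00, adjusted p = 0.144). KRT75, a keratin of the hair companion layer, had 19, 6 and 4 counts in controls and 60, 15 and 14 with Ocoxin (1.601, SE 0.74, adjusted p = 0.274, and 0.0124 with the block). KRT14 and KRT75 were the 2 keratins called with the block, against 8.5% of all genes. Replicate 1 was the highest of its group for KRT75 in both groups, and without Ocoxin replicate 1 the log2 fold change of KRT75 was 0.59 (adjusted p = 0.69). It was also the highest for KRT80, KRT6B and KRT6C among the Ocoxin libraries. Counts on annotated KRT8 pseudogenes were 27.7% to 37.8% of those on KRT8 in PRAD and at most 12.96% in the other lines.

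**Figure D3:**
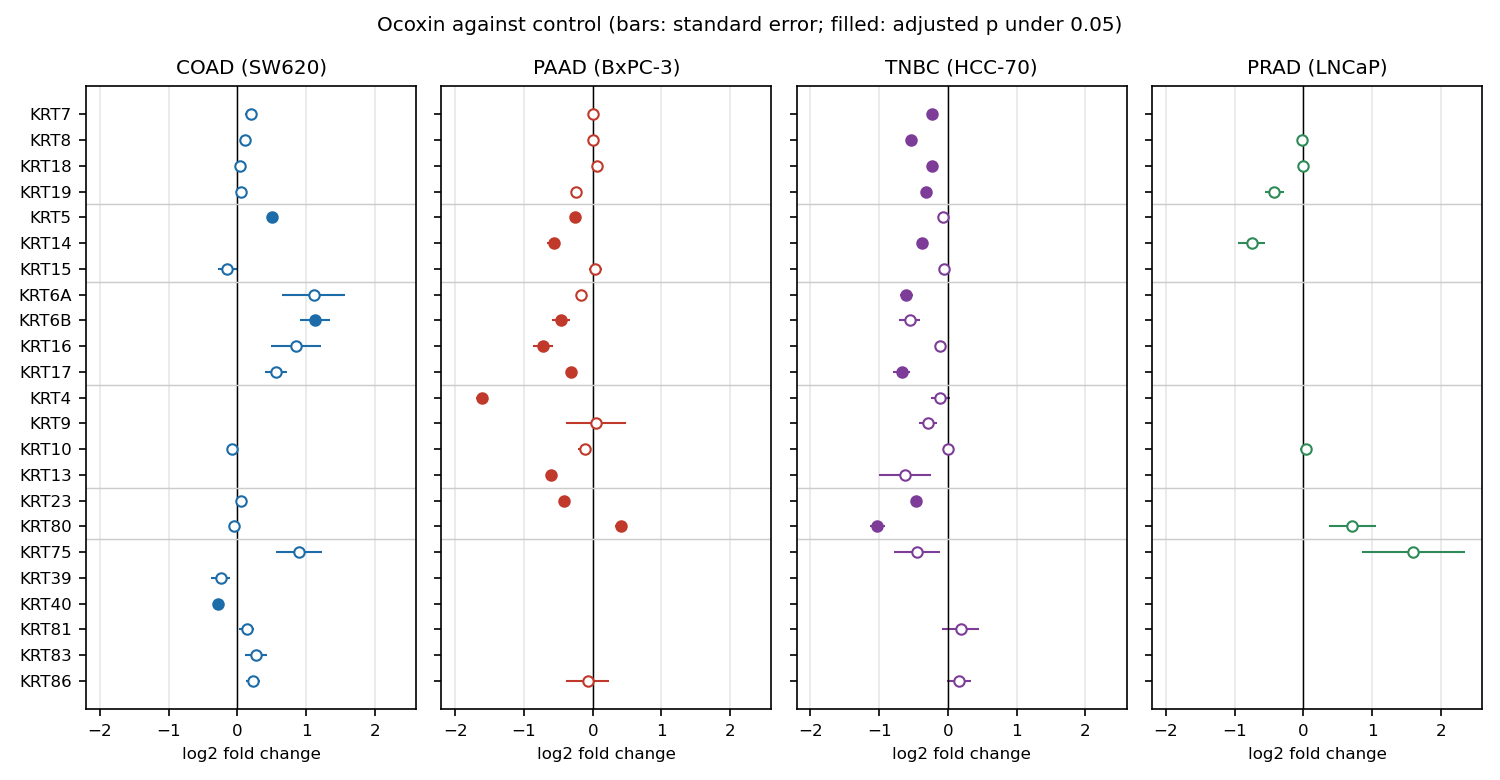
Log2 fold change of Ocoxin against control for the named keratins that passed the filter in each cell line, with bars for the standard error and filled circles for an adjusted p under 0.05. Filled circles lie below 0 except KRT80 in PAAD and KRT5 and KRT6B in COAD, and PRAD has none.

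**Figure D4:**
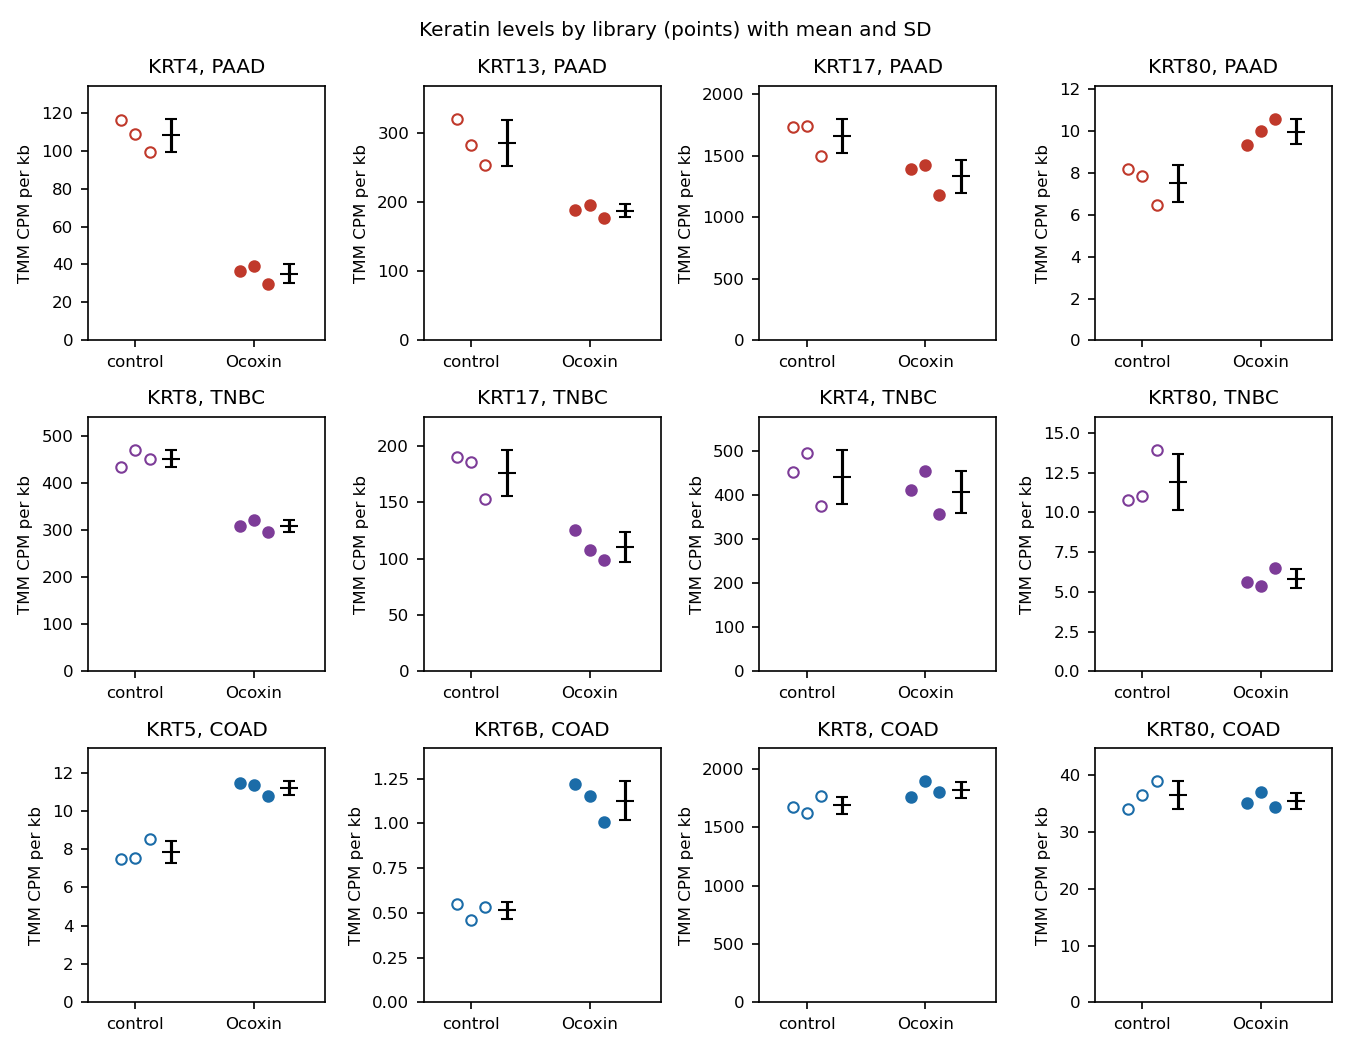
Level of keratins, chosen after their values were seen, in each control (open) and Ocoxin (filled) library, in TMM CPM per kb on axes that start at 0, with mean and SD beside them. The groups do not overlap for KRT4, KRT13, KRT17 and KRT80 in PAAD, for KRT8, KRT17 and KRT80 in TNBC and for KRT5 and KRT6B in COAD, while KRT4 in TNBC and KRT8 and KRT80 in COAD overlap.

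Counted by overlap alone, 10 of the 19 keratins of PAAD had no overlap between groups (against 27.6% of all genes), 9 of them lower with Ocoxin (against 14.4%). In TNBC there were 13 of 24 (38.1%), all 13 lower (19.8%), in COAD 9 of 19 (19.9%), 2 of them lower (9.58%), and in PRAD 2 of 10 (27.7%), both lower (12.6%). By group and by adjusted p, the counts stand against 21% of all genes altered in TNBC, 8.33% in PAAD, 2.98% in PRAD and 2.55% in COAD. Of the simple keratins KRT7, KRT8, KRT18 and KRT19, 0 of 4 were altered in COAD and PAAD and 4 of 4 in TNBC, and in PRAD, where KRT20 and not KRT7 passed the filter, 0 of 4. The basal keratins were altered in 2 of 3 in PAAD (lower), 1 of 3 in TNBC (lower), 1 of 2 in COAD (higher) and 0 of 1 in PRAD. The stress keratins were altered in 3 of 4 in PAAD (lower), 2 of 4 in TNBC (lower), 1 of 4 in COAD (higher) and 0 of 1 in PRAD. The mucosal and epidermal group was altered in 2 of 5 in PAAD and in 0 of 7 in TNBC. These group counts come from the fit without the replicate block. With the block, the simple keratin KRT19 (adjusted p = 4.56e-07) and KRT6A were called in PAAD too. So were KRT4, KRT5, KRT6B and KRT16 in TNBC, KRT14 in PRAD and KRT17 in COAD, whose numbers were not taken as pairs.

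Whether the response differed between cell lines was tested with an interaction term over the 18 libraries of COAD, PAAD and TNBC. COAD and TNBC received the same dilution, and 11 of the keratins responded differently in them, against 7.85% of all genes tested, each with the lower response in TNBC (against 4.46%, with 3.39% higher). They were the 4 simple keratins KRT7, KRT8, KRT18 and KRT19, the stress keratins KRT6A, KRT6B, KRT16 and KRT17, and KRT5, KRT23 and KRT80. Within each line alone, KRT16 was called in neither COAD (adjusted p = 0.248) nor TNBC (0.283). The difference of the log2 fold changes was -0.65 for KRT8 (SE 0.07, adjusted p = 1.17e-06) and -0.99 for KRT80 (SE 0.13, adjusted p = 3.69e-05). COAD and PAAD, with different dilutions, differed in 5 (3.96% of all genes), each lower in PAAD (against 1.96%, with 2% higher), among them KRT5 with -0.78 (SE 0.09, adjusted p = 1.04e-05). KRT6A, also among them, was called in neither COAD (adjusted p = 0.229) nor PAAD (0.0618) alone. PAAD and TNBC differed in 6 (4.56% of all genes), 4 with the lower response in TNBC (2.75%) and 2 with the higher (1.8%). KRT80 went up in PAAD and down in TNBC, with a difference of -1.44 (SE 0.14, adjusted p = 2.13e-07), and KRT8 (-0.54, SE 0.07, adjusted p = 1.91e-05), KRT18 and KRT6A responded lower in TNBC. KRT4 (1.51, SE 0.16, adjusted p = 4.78e-05) and KRT16 (0.60, SE 0.15, adjusted p = 0.0135) responded lower in PAAD. With the replicate block, KRT7 (-0.22, adjusted p = 0.000283), KRT17 (-0.36, adjusted p = 5.12e-06) and KRT5 (0.19, adjusted p = 0.00211) were called between PAAD and TNBC as well. The 3 comparisons share libraries.

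**Figure D5:**
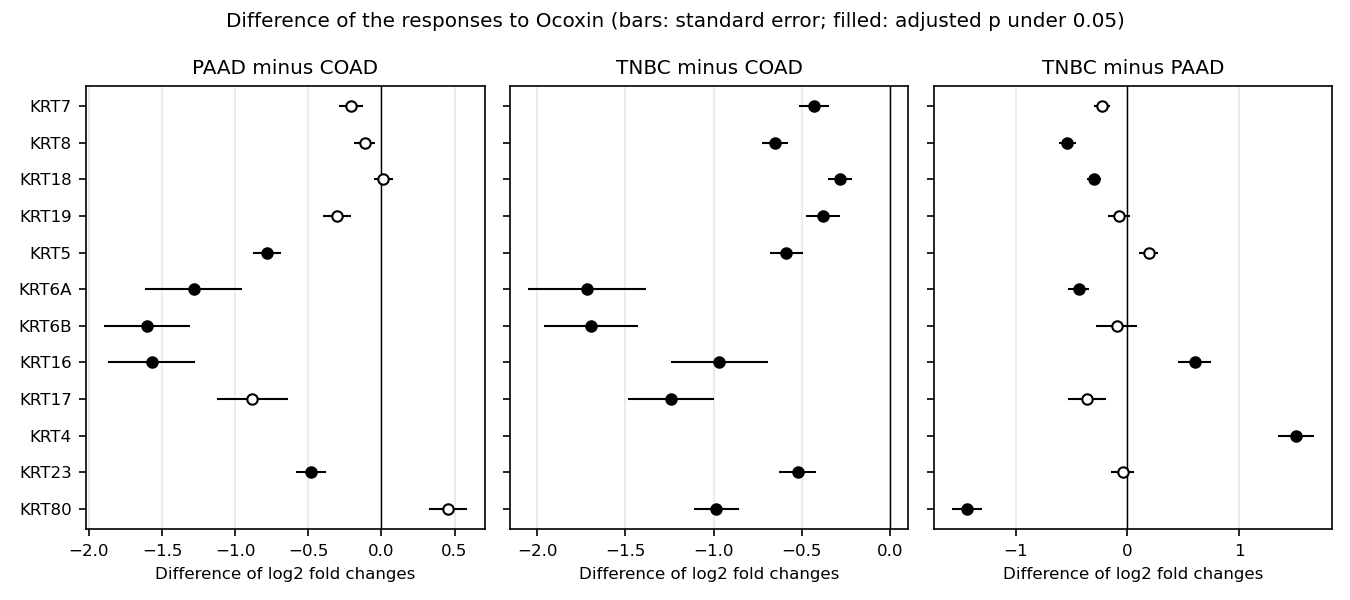
Difference of the log2 fold changes under Ocoxin between pairs of cell lines for 12 keratins, with bars for the standard error and filled circles for an adjusted p under 0.05. In the comparison of TNBC with COAD, the 11 keratins drawn lie below 0, and in that of TNBC with PAAD, KRT80 lies at -1.44 and KRT4 at 1.51. KRT4 is not drawn against COAD, where it had at most 6 counts.

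Genes that work with keratins were counted from lists of 7 plakins, 15 other intermediate filament genes, 5 regulators of keratin filaments and 18 transcription factors of epithelial programs, to be read against the same shares of all genes (8.33% in PAAD and 21% in TNBC). Of the plakins, which link keratin filaments to junctions and to other filaments, 4 rose in PAAD, among them EPPK1 (log2 fold change 0.45, adjusted p = 0.00211), PLEC (0.34) and EVPL (0.29), and 1 fell. In TNBC, 2 of 7 were altered, near the share of all genes, and DSP (0.37, adjusted p = 0.000271) and DST (0.29) rose, and in COAD and PRAD 0 of 7 were altered. Among other intermediate filament genes, VIM, which encodes the filament of mesenchymal cells, fell in TNBC (-0.90, SE 0.10, adjusted p = 0.000233), SYNM rose in PAAD (0.39) and PRAD (0.64), and LMNB1 fell in COAD (-0.23). KLHL24, an adaptor of the ubiquitin ligase that turns keratins over, rose in PAAD (0.40, adjusted p = 0.00285) and TNBC (0.26, adjusted p = 0.00786), and SFN fell in both (-0.27 and -0.41), while FLG fell in PAAD (-0.49). Of the transcription factors, 5 of 16 tested were altered in PAAD, where ZNF750, a factor of epidermal differentiation, fell (-1.22, SE 0.15, adjusted p = 0.000112), GATA3 fell (-0.49) and KLF4 rose (0.40). In TNBC, 4 of 16 were altered, near the share of all genes (21%), OVOL1 (-0.64, adjusted p = 0.0151), NOTCH1 (0.25) and ELF3 (-0.20) with the largest changes of them. TP63, named after its levels were seen, was not called in PAAD (-0.03, adjusted p = 0.737) or TNBC (-0.62, adjusted p = 0.0773).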

How the data were processed

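Raw reads were not used. Per the labels and the methods of the study, the authors made stranded mRNA libraries, and used fastp for trimming, STAR for alignment to hg38 and picard for duplicate removal. The deposited values are whole counts per gene, made by the authors with featureCounts 2.0.3 from primary alignments on exons, without a strand option. PRAD was counted with other paired-end settings than the 3 other lines, so levels were not tested across the tables. Reads on exons of 2 genes were not assigned, and KRT8 and KRT18 exons overlap (7.63% and 16.3% of their bases). A read with several alignments counted at its primary one, which leaves paralogs and pseudogenes uncertain.

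Groups came from the letters C (control) and O (Ocoxin) in the sample titles, since the labels give a dilution for controls too. Counts were tested in R 4.3.3 with edgeR 4.0.16 (robust quasi-likelihood F-test) after filterByExpr and TMM, each cell line alone, adjusted by Benjamini-Hochberg over the genes tested, and called at an adjusted p under 0.05. The standard error is the size of the log2 fold change divided by the square root of F. Untreated lines were compared over 9 control libraries and responses over 18 libraries of COAD, PAAD and TNBC. Named keratins reached a mean of 1 CPM per kb of exon in a group or were called, and partner genes were named if called, at most 3 per list and cell line. The members, gene lists and tests were chosen with earlier results of these data known. Alternatives were DESeq2 1.42.0, its size factors, no filter, an adjusted p under 0.01, all 24 libraries in 1 fit, a replicate block, a length and GC trend removed, halved counts, a correction of PRAD for same-start reads, summed KRT6 genes, and each library left out. The MANE Select length for that correction and the exonic length for the sum ratio were added after the data were seen.

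The main test left the replicate numbers out in every line, also where pairs were accepted, and results with the replicate block stand beside it. Same-numbered libraries were taken as pairs where the correlation of their deviations was over 0.1 for each number. It was 0.245 to 0.529 in PAAD, 0.156 to 0.558 in PRAD and 0.253 to 0.598 in TNBC, where libraries 1 and 2 correlated best crosswise, and 0.0457 for number 2 of COAD, which was not taken as paired. On simulated data, the test recovered 54% to 64% of changes of 0.5 and 75% to 83% of changes of 1 on the log2 scale over the 4 cell lines.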

Additional observations from a re-analysis of the deposited data

Results flagged for a closer look

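The response to Ocoxin differed between cell lines, by an interaction term in edgeR, for the following keratins, each with the difference of the log2 fold changes and with 3 control and 3 Ocoxin libraries per line. Responses were lower in PAAD than in COAD for KRT16 (-1.57), KRT6B (-1.6), KRT6A (-1.28), KRT5 (-0.78) and KRT23 (-0.48). The call of KRT6A was lost without COAD control replicate 2 (adjusted p = 0.0913), COAD control replicate 3 (0.0718) or COAD Ocoxin replicate 3 (0.121), and KRT6A, KRT6B and KRT16 had 6 to 92 counts a library in COAD. The dilution differed between both lines, so dilution and cell line cannot be told apart.

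Responses were lower in TNBC than in COAD, at the same dilution, for KRT6A (-1.72), KRT6B (-1.70), KRT17 (-1.24), KRT80 (-0.99), KRT16 (-0.97), KRT8 (-0.65), KRT5 (-0.59), KRT23 (-0.52), KRT7 (-0.43), KRT19 (-0.38) and KRT18 (-0.28). The call of KRT16 was lost without COAD control replicate 1 (adjusted p = 0.103), COAD control replicate 3 (0.0866), COAD Ocoxin replicate 2 (0.153) or COAD Ocoxin replicate 3 (0.0676). The call of KRT19 was lost without COAD control replicate 1 (0.0621), COAD control replicate 2 (0.058), COAD Ocoxin replicate 2 (0.0568) or TNBC control replicate 2 (0.0546).

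Between PAAD and TNBC, whose dilutions differ, the response was lower in TNBC for KRT80 (-1.44), KRT8 (-0.54), KRT6A (-0.43) and KRT18 (-0.30) and lower in PAAD for KRT4 (1.51) and KRT16 (0.60). The call of KRT16 was lost without PAAD control replicate 1 (adjusted p = 0.0539), PAAD Ocoxin replicate 2 (0.0533) or PAAD Ocoxin replicate 3 (0.0547).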

How the results depend on the processing

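Among the recomputed counts of altered keratins, 159 stayed within 1.5 times the reported count and 6 did not. In COAD, the replicate block gave 5 in place of 3, with KRT17 and KRT75 added, although the numbers were not taken as pairs there (against 10.9% of all genes), and in the response of COAD and PAAD it gave 10 in place of 5. In PRAD, the count went from 0 to 2 with the replicate block, to 2 with all 24 libraries in 1 fit, to 2 with the length and GC trend removed and to 1 without the filter, and KRT14 was called in each of these 4. With all 24 libraries the other was KRT7, with 0 counts in each control and 5, 1 and 3 with Ocoxin. The cause was not tested. With the replicate block, PAAD had 11 and TNBC 13, and no call of the fit without it was lost. With 1 library left out, the counts were 2 to 3 in COAD, 6 to 10 in PAAD, 0 in PRAD and 8 to 10 in TNBC, with the 6 without PAAD control replicate 2. They were 23 to 26, 23 to 25 and 19 to 23 between untreated COAD and PAAD, COAD and TNBC, and PAAD and TNBC, and 4 to 7, 9 to 11 and 5 to 6 for the responses in the same order. Among the recomputed fold changes of single keratins, 867 kept their side of the threshold, 45 lost the call, 30 gained it and 0 changed direction. With all 24 libraries in 1 fit, the calls of KRT17 (adjusted p = 0.0976) and KRT6B (0.106) in PAAD and of KRT40 (0.389) in COAD were lost. With counts halved, 3 keratins were called in COAD, 9 in PAAD and 9 in TNBC. KRT6A had 6 to 17 counts a library in COAD.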
